A study of Mus musculus with 6 samples.

Results

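The Schlafen family was described here in bone-marrow-derived macrophages (BMDMs) that lacked CITED2, a transcriptional coregulator, in myeloid cells. Its members were *Slfn1*, *Slfn2*, *Slfn3*, *Slfn4*, *Slfn5*, *Slfn8* and *Slfn9*, 7 of the 22248 genes with deposited expression values. They were chosen by gene name, with their higher values in CITED2-deficient BMDMs already known, so their differences between genotypes are a description and carry no test. RNA sequencing was performed on 6 libraries, 3 from *Lyz2cre* mice, the controls, and 3 from mice of the genotype *Cited2* fl/fl:*Lyz2*cre, called CITED2-deficient. Both groups were C57BL/6, both carried 1 *Lyz2* Cre allele, which drives the recombinase in myeloid cells and replaces coding sequence of lysozyme M, and the CITED2-deficient mice carried both *Cited2* alleles floxed. The labels gave postnatal week 10 for all 6 libraries, whereas the study's methods give a younger age for the donors of BMDMs. Bone marrow was grown in macrophage colony-stimulating factor, and no stimulus was named for these cells. The labels numbered the libraries within each group and the design text gave n = 3, so p-values measure the spread among these libraries, which may be partly technical.

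Schlafen proteins share an N-terminal core related to RNA-binding and RNA-cleaving folds. In the mouse, *Slfn1* and *Slfn2* encode the short members, *Slfn3* and *Slfn4* the intermediate members, and *Slfn5*, *Slfn8* and *Slfn9* the long members, which carry a helicase-like C-terminal region. The family was named from the German for sleeping, after the growth arrest of thymocytes that overexpress *Slfn1*. Type I interferons induce many of these genes through interferon-stimulated response elements in their promoters, and in myeloid cells several are also induced by Toll-like receptor ligands.

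The 7 members lie together on chromosome 11 of mm10, within 264 kb from position 82951349 to 83215154. *Slfn5*, *Slfn2*, *Slfn1*, *Slfn4* and *Slfn3* are on the plus strand, and *Slfn9* and *Slfn8* are on the minus strand between *Slfn5* and *Slfn2*. Promoter windows from 250 bases before to 50 bases after the RefSeq start site were searched for the pair of GAAA words spaced by 2 bases that is typical of interferon-stimulated response elements, on either strand. The pair was present in the windows of 3 of the 7 members, *Slfn5*, *Slfn8* and *Slfn9*, against 3.99% of the 27025 genes with a window. These are the 3 long members. The windows of *Slfn8* and *Slfn9* are much alike, as given below, so their matches are not separate cases. The match of *Slfn5* runs into a stretch of A. The windows of *Slfn1*, *Slfn2*, *Slfn3* and *Slfn4* did not hold these letters, which says nothing on other windows or other spellings. The shorter form GAAANNGA, which is part of the pair, was present in the windows of 4 of 7 members, with *Slfn3* added, against 23.4% of all genes.

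The windows with the pair are printed below from RefSeq for GRCm38.p6 (mm10), 5' to 3' on the strand of the gene, to place the pair relative to the start site. The window of *Slfn4*, the member with the largest difference between genotypes, is printed beside them. Capitals mark the matched letters. The *Slfn5* window is chr11:82951852-82952151 on the plus strand, and its match begins 155 bases before the RefSeq start site, which lies within the gene as GENCODE annotates it. The *Slfn8* window is chr11:83020761-83021060 on the minus strand, the upstream one of its 2 RefSeq windows, and its match begins 48 bases before the start site, or 136 bases before the other start site. The *Slfn9* window is chr11:82991781-82992080 on the minus strand, with its match beginning 45 bases before the start site. The *Slfn4* window is chr11:83174936-83175235 on the plus strand.
Slfn5: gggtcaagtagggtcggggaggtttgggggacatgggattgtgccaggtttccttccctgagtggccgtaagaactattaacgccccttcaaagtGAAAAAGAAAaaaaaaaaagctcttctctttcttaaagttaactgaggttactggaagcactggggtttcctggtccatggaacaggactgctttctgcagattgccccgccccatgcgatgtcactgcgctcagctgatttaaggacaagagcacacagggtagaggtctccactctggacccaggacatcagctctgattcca
Slfn8: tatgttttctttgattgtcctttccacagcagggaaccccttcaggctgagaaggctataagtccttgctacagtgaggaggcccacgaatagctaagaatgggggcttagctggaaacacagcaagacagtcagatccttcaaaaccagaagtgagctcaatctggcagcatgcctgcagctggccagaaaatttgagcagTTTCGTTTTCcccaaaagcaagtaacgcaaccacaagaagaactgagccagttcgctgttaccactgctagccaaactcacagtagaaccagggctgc
Slfn9: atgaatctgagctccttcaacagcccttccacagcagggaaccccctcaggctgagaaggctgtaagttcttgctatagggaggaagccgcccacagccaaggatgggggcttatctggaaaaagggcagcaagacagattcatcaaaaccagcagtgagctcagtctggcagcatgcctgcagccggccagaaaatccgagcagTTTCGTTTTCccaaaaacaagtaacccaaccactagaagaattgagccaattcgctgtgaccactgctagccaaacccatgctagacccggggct
Slfn4: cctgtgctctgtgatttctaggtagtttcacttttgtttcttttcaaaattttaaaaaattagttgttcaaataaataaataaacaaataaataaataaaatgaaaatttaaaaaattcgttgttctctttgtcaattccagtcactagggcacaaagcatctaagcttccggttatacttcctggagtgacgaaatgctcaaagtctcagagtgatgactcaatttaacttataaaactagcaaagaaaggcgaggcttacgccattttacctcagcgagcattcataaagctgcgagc
In *Slfn8* and *Slfn9* the match is on the opposite strand, so it reads as its reverse complement, with the same letters in both genes. The windows of *Slfn8* and *Slfn9* held the same base at 82.7% of the 300 positions in a global alignment, whereas the other pairs of members did so at 48% to 56.3%.

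*Cited2* was lower in every CITED2-deficient library, at 9.27, 7.22 and 7.53 FPKM (fragments scaled to transcript length and to library depth) against 71.7, 79.3 and 75.5 in the controls. It fell by 3.09 on the log2(FPKM + 1) scale (SE 0.082, adjusted p = 6.57e-09, limma over 11687 genes with a mean of at least 1 FPKM), with the 3 libraries of each group on their own side. The depth recovered from the steps of the FPKM values was 17289286 to 18952077 fragments per control library and 22583995 to 26100410 per CITED2-deficient library. Among the 11687 tested genes, 1950 were called higher and 4044 lower in CITED2-deficient BMDMs, so that 32.5% of the calls were higher, and 52% were higher after median-ratio scaling. In CITED2-deficient replicate 1 the fibroblast markers summed to 539 FPKM beside 170 and 171 in replicates 2 and 3. Most of this excess came from *Col1a1* (305 FPKM against 62 and 62.6) and *Col1a2* (175 against 66.3 and 63.6). *Col3a1*, *Pdgfra* and *Pdgfrb* were higher there by less, *Dcn* was not (6.83 against 6.18 and 7.53), and *Lum* was below the filter. The values of the members without replicate 1 are given with the markers.

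The short members were *Slfn1* and *Slfn2*. *Slfn1* (ENSMUSG00000078763, chr11:83116849-83122670), the founding member, was at 9.96, 8.78 and 9.48 FPKM in the control libraries. It was at 162, 179 and 168 FPKM in the CITED2-deficient libraries. The groups did not overlap, and the mean went from 9.41 ± 0.594 to 169 ± 8.56 FPKM (SD, n = 3 each), a ratio of 18 and a log2 difference of 4.03 (SE 0.055). *Slfn2* (ENSMUSG00000072620, chr11:83065112-83070678), which keeps T cells and monocytes from leaving quiescence and binds transfer RNAs, was at 223, 222 and 222 FPKM in the control libraries. It was at 463, 492 and 475 FPKM in the CITED2-deficient libraries. *Slfn2* was the most abundant member in all 6 libraries, yet its ratio of means, 2.14, was the lowest of the family. Its mean went from 222 ± 0.863 to 477 ± 14.5 FPKM, a log2 difference of 1.10 (SE 0.029).

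The intermediate members were *Slfn3* and *Slfn4*, whose genes are adjacent. *Slfn4* (ENSMUSG00000000204, chr11:83175186-83190216), known from activated myeloid cells, was at 6.06, 6.05 and 5.84 FPKM in the control libraries. It was at 150, 172 and 163 FPKM in the CITED2-deficient libraries. These values correspond to 362, 331 and 350 recovered fragments in the controls and to 12053, 12312 and 13457 in the CITED2-deficient libraries, so that counting error was small in both groups. The mean went from 5.98 ± 0.124 to 162 ± 11.2 FPKM, a ratio of 27 and a log2 difference of 4.54 (SE 0.054), the first in rank of all 11687 tested genes. *Slfn3* (ENSMUSG00000018986, chr11:83191330-83215154), studied in T cells and in the gut epithelium, had the lowest mean of the family in both groups. It was at 3.74, 3.41 and 3.71 FPKM in the control replicates and at 16.6, 18.6 and 16.1 FPKM in the CITED2-deficient libraries. The means were 3.62 ± 0.183 and 17.1 ± 1.34 FPKM, a ratio of 4.72 and a log2 difference of 1.97 (SE 0.076). Although *Slfn3* starts next to *Slfn4*, its level in CITED2-deficient BMDMs was far below that of *Slfn4*.

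The long members were *Slfn5*, *Slfn8* and *Slfn9*. *Slfn5* (ENSMUSG00000054404, chr11:82951349-82964840), a nuclear member, was at 130, 129 and 133 FPKM in the control libraries. It was at 408, 438 and 425 FPKM in the CITED2-deficient libraries. Its mean went from 131 ± 1.94 to 424 ± 15.2 FPKM, a ratio of 3.25 and a log2 difference of 1.69 (SE 0.033). *Slfn8* (ENSMUSG00000035208, chr11:83002158-83020810), a close relative of *Slfn9*, was at 46.1, 42.7 and 44.1 FPKM in the control libraries. It was at 116, 131 and 127 FPKM in the CITED2-deficient libraries. The means were 44.3 ± 1.7 and 125 ± 8.04 FPKM, a ratio of 2.82 and a log2 difference of 1.47 (SE 0.051). *Slfn9* (ENSMUSG00000069793, chr11:82978390-82991830) was at 5.08, 4.13 and 6.09 FPKM in the control replicates and at 19, 21.1 and 20.9 FPKM in the CITED2-deficient libraries. *Slfn9* had the widest relative spread among the controls, a coefficient of variation of 19.2%, and its groups still did not overlap. The means were 5.1 ± 0.977 and 20.3 ± 1.13 FPKM, a ratio of 3.99 and a log2 difference of 1.82 (SE 0.11).

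**Figure D1:**
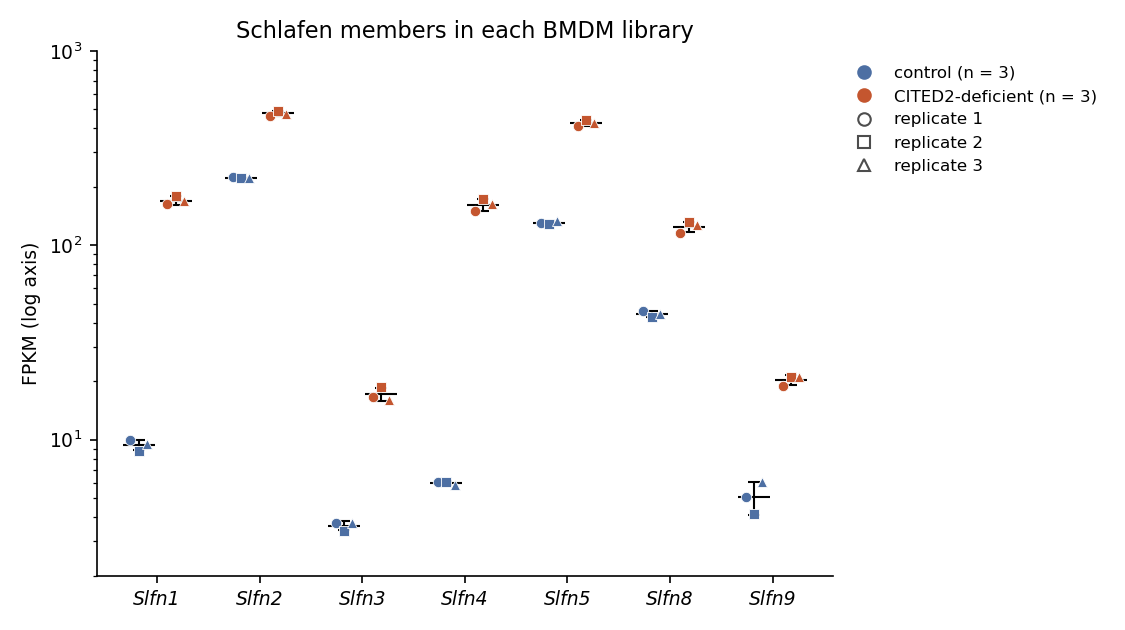
FPKM of the 7 members in each of the 6 libraries, on a log axis. Each symbol is 1 library and its shape gives the replicate number, and the black dash and bars give the mean ± SD of 3 libraries; for every member the CITED2-deficient symbols lie above the control symbols, with the widest gap for *Slfn4* and the narrowest for *Slfn2*.

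All 7 members passed the filter of a mean of at least 1 FPKM. All 7 were called higher by limma and none lower, beside 16.7% of all tested genes called higher and 34.6% called lower, and nothing is read from this count because the members were chosen on this contrast. Likewise, all 7 had every CITED2-deficient library above every control library, which 19.0% of tested genes had. Their log2 differences ran from 1.10 to 4.54, with a median of 1.82 beside -0.10 for all tested genes. *Slfn4* and *Slfn1* stood apart from the other 5, which lay between 1.10 and 1.97. The 3 members with the highest control levels, *Slfn2*, *Slfn5* and *Slfn8*, had the 3 lowest ratios of means. This is a description over 7 genes measured in the same 6 libraries.

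FPKM is expressed per transcript length, so levels can be set side by side. Whole fragments were recovered with the mean length of a gene's annotated transcripts, whichever of them were expressed. The order and shares of the members therefore depend on the annotation. In the controls the order was *Slfn2*, *Slfn5*, *Slfn8*, *Slfn1*, *Slfn4*, *Slfn9* and *Slfn3*, with the mean of *Slfn2* 61.4 times that of *Slfn3*. Only *Slfn4* and *Slfn9* overlapped between adjacent places in that order. In CITED2-deficient BMDMs the order was *Slfn2*, *Slfn5*, *Slfn1*, *Slfn4*, *Slfn8*, *Slfn9* and *Slfn3*, with a ratio of 27.9 between the first and the last. *Slfn1* and *Slfn4*, now above *Slfn8*, overlapped each other (162 to 179 against 150 to 172 FPKM), and no other adjacent pair overlapped. By rank among the tested genes, *Slfn4* moved from place 8366 to place 669 and *Slfn1* from place 7298 to place 631, whereas *Slfn2* moved from place 474 to place 179.

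The summed FPKM of the 7 members reached 424, 416 and 424 in the 3 control libraries. In the CITED2-deficient libraries it reached 1334, 1452 and 1395. The sum was thus 3.31 times higher (421 ± 4.77 against 1394 ± 59, SD, n = 3). *Slfn2* alone gave 52.8% ± 0.487 of the sum in the controls and 34.2% ± 0.448 in the CITED2-deficient libraries. The share of *Slfn1* went from 2.23% ± 0.118 to 12.2% ± 0.134, and that of *Slfn4* from 1.42% ± 0.0398 to 11.6% ± 0.324. *Slfn5* held 31% ± 0.341 and 30.4% ± 0.213, so its share differed by little more than the spread between libraries. The share of *Slfn8* went from 10.5% ± 0.312 to 8.95% ± 0.231.

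**Figure D2:**
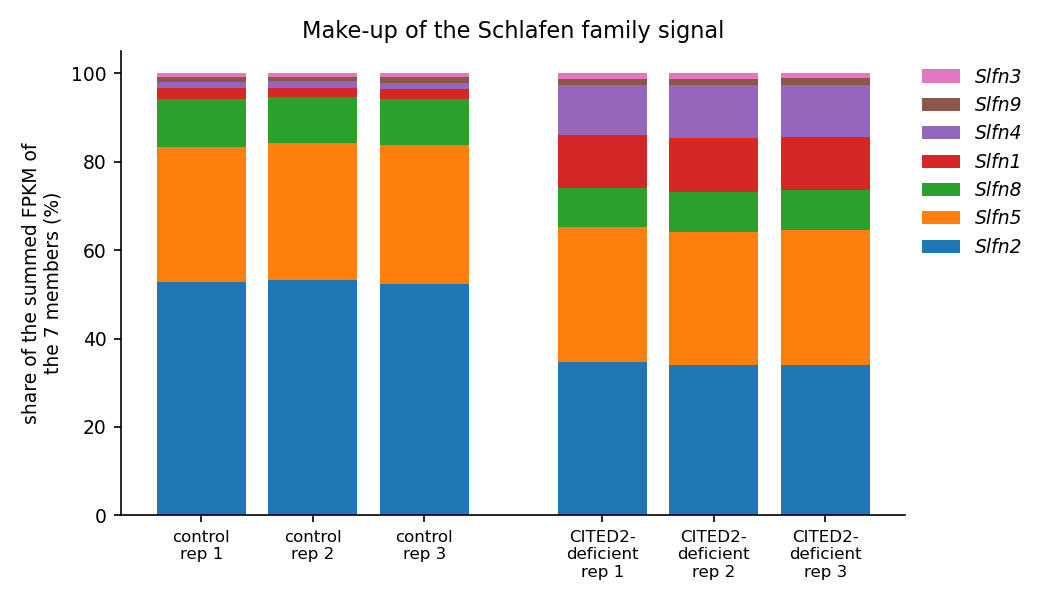
Share of each member in the summed FPKM of the 7 members, in percent, with 1 bar per library and the 2 genotypes side by side. The *Slfn2* segment is smaller in the CITED2-deficient libraries (34.2% against 52.8% on average), the *Slfn1* and *Slfn4* segments are larger, and the *Slfn5* segment is of nearly the same height in both groups.

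Within the CITED2-deficient group the members varied together. All 7 were highest in replicate 2, and 6 were lowest in replicate 1, with *Slfn3* lowest in replicate 3. Of the 32 canonical interferon-stimulated genes listed below, 22 were also highest in replicate 2, 9 in replicate 3 and 1 in replicate 1, whereas 31.9% of all tested genes were highest in replicate 2. Replicate 2 had the lowest depth of its group, and whether depth bears on this order was not tested.

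The other Schlafen genes were read beside the members. *Slfn10-ps*, a pseudogene between *Slfn8* and *Slfn2*, was at 5.53, 5.81 and 6.2 FPKM in the controls and at 13.7, 17.3 and 14.5 FPKM in the CITED2-deficient libraries, a rise of 1.23 on the log2 scale (SE 0.09, limma adjusted p = 4.99e-06). Its annotated transcripts shared 19.7% of their 50-base words with other Schlafen genes, and 13.5% with *Slfn9*, which shared the most. *Slfn8* in turn shared 10.1% of its own words with *Slfn10-ps*, so fragments could have been exchanged among *Slfn10-ps*, *Slfn9* and *Slfn8*. The share of words found in any other Schlafen gene was 14.6% for *Slfn8*, 11.2% for *Slfn9*, 8.15% for *Slfn4* and 7.39% for *Slfn3*. It was 4.27% for *Slfn2*, 0.606% for *Slfn1* and 0 for *Slfn5*. Among the members, *Slfn8* and *Slfn9* were thus the most open to fragments of other Schlafen genes by this measure, and *Slfn5* the least. Words shared with genes outside the family were not counted. *Slfn14*, which is known from platelets and red cells, had 0, 0 and 1 fragments in either group, and was thus not detectable beyond single fragments at this depth. *Slfnl1*, a relative on chromosome 4, had 0, 1 and 3 fragments in the controls and 1, 0 and 0 in the CITED2-deficient libraries. *Slfn5os*, antisense to *Slfn5*, had at most 2 fragments, and *Gm20234*, antisense to *Slfn2*, was at 0.484 to 1.67 FPKM over the 6 libraries. The libraries were stranded, but no source used here gives the strand setting of the counting, and both antisense genes were listed far below their partners.

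For each member, the 2 tested genes whose profile over the 6 libraries lay nearest were listed, as the root mean square difference of log2(FPKM + 1) after subtraction of the control mean. For *Slfn4* these were *Ly6a* and *Ms4a4c*, at distances of 0.166 and 0.187. *Ly6a*, the stem cell antigen, went from a mean of 43 to 886 FPKM. For *Slfn1* they were *Ifi44* and *Ifit1bl1*, at 0.174 and 0.183. For *Slfn2* they were *Pml*, the organiser of nuclear bodies, and *B2m*, the light chain of class I molecules, at 0.0204 and 0.0271. *Slfn3* lay nearest to the guanylate-binding proteins *Gbp6* and *Gbp9* (0.0434 and 0.0445), although *Gbp6* was at a much lower level, from 0.358 to 4.18 FPKM. *Slfn5* lay nearest to *H2-T22* and *Dck* (0.0237 and 0.0368), and *Slfn8* to *Gm5431* and *Fcgr1* (0.0403 and 0.0456). *Slfn9* lay nearest to *Ddx58*, which encodes the RNA sensor RIG-I, and *Herc6* (0.0873 and 0.0881). With 2 groups of 3 libraries, this measure mostly reflects the difference between genotypes.

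The genes around the cluster were examined next. Within 0.5 Mb of the outermost members 39 other genes were listed and 21 were tested. Of these 6 rose, 2 fell and 13 were not called, with a median log2 difference of 0.039. Over all tested genes 16.7% were called higher and 34.6% lower, with a median of -0.10. *Ccl5*, a chemokine gene that interferon also induces, was at 4.59, 7.52 and 3.17 FPKM in the controls and at 73, 79.4 and 74 FPKM in the CITED2-deficient libraries. It rose by 3.71 on the log2 scale (SE 0.21, limma adjusted p = 8.73e-07). *Ccl4*, another chemokine gene, rose from 28.6 ± 0.95 to 58.1 ± 1.69 FPKM, a log2 change of 1.00 (adjusted p = 1.23e-07). Inside the cluster, the pseudogene *Gm11425* rose from 7.26 ± 1.52 to 17.2 ± 0.284 FPKM (log2 change 1.16, adjusted p = 5.61e-05) and the annotated miRNA gene *Gm27598* from 2.04 ± 1.04 to 4.05 ± 0.466 FPKM (log2 change 0.80, adjusted p = 0.0227). The annotated bounds of *Slfn10-ps* enclose *Gm27598* on the same strand, and *Gm11425* lies just beside them, also on that strand. Whether the fragments of either came from *Slfn10-ps* transcripts was not tested. *Gm27598* rests on 1, 3 and 3 fragments in the controls and 7, 5 and 7 in the CITED2-deficient libraries. Its call was lost without CITED2-deficient replicate 1 (adjusted p = 0.0588) or replicate 3 (adjusted p = 0.0696), and also with limma-voom on recovered fragments, without the filter and without the variance trend (adjusted p = 0.213, 0.0845 and 0.0522). The changes of *AI662270* (0.14, adjusted p = 0.0182) and *Ccl9* (0.083, adjusted p = 0.0193) were small. *AI662270* was not called without control replicate 1, control replicate 3 or CITED2-deficient replicate 2 (adjusted p = 0.0612, 0.0531 and 0.0512), nor *Ccl9* without control replicate 2, control replicate 3 or CITED2-deficient replicate 3 (adjusted p = 0.053, 0.0626 and 0.0575). *AI662270* was not called by limma-voom either (adjusted p = 0.0526), nor *Ccl9* without the variance trend (adjusted p = 0.106).

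*Rffl*, which encodes an E3 ubiquitin ligase and lies beyond *Slfn5*, fell by 0.71 on the log2 scale (adjusted p = 2.84e-05), and *Wfdc17*, beyond the chemokine genes, fell by 0.85 (adjusted p = 1.78e-06). The other 13 neighbours, among them *Zfp830*, *Gm11423*, *Lig3*, *Rad51d*, *Nle1*, *Gm20234*, *Gm11427*, *Snord7*, *Ap2b1*, *Taf15*, *Ccl6* and *Ccl3* were not called, with log2 differences from -0.49 to 0.35. Of these, *Gm20234* and *Ccl3* passed the threshold without CITED2-deficient replicate 1 (adjusted p = 0.0362 and 0.0194), *Gm11427* without control replicate 3 (adjusted p = 0.0157) and *Snord7* without control replicate 2 (adjusted p = 0.0265). With median-ratio scaling *Ccl3* and *Ccl6* were called higher (log2 changes 0.23 and 0.14, adjusted p = 0.00818 and 0.0428), and *Ccl3* was also called with quantile normalization (adjusted p = 0.0399) and with the replicate block (adjusted p = 0.0303). *Nle1*, the nearest tested protein-coding gene beyond *Slfn5*, was at 9.32 ± 1.28 FPKM in the controls and 10.2 ± 1.15 FPKM in the CITED2-deficient libraries.

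**Figure D3:**
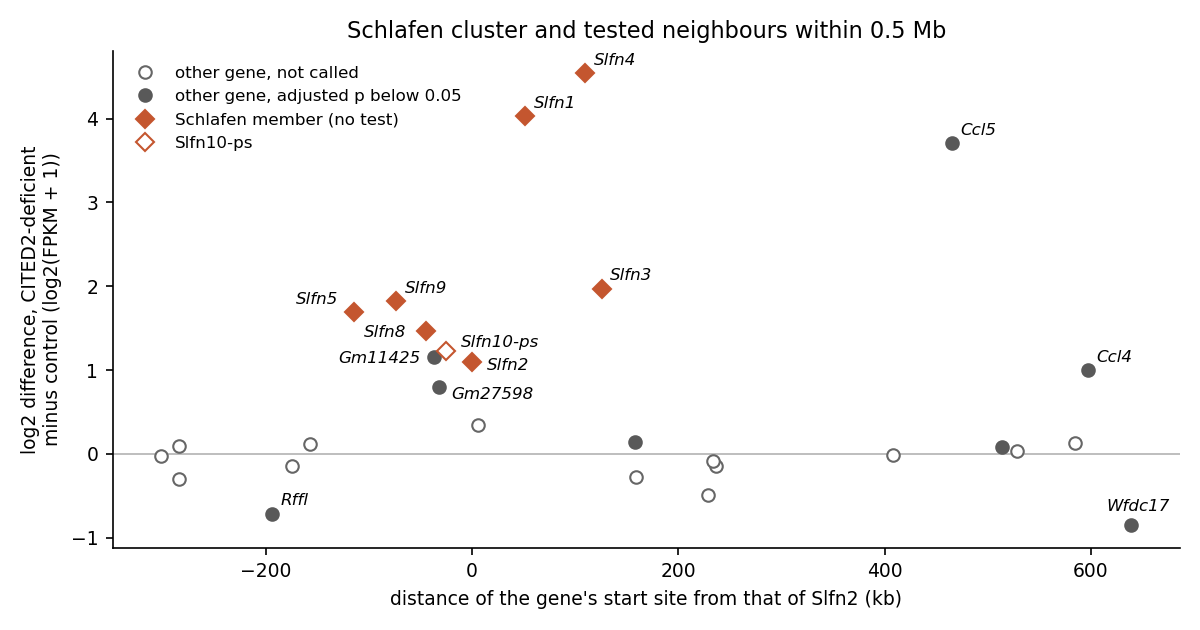
Log2 difference in log2(FPKM + 1) between CITED2-deficient and control BMDMs for the members, *Slfn10-ps* and the 21 tested neighbours, against the distance of their start sites from that of *Slfn2* in kb. The members (filled diamonds, no test) span -114 to 126 kb and lie between 1.10 and 4.54, whereas most neighbours (circles, filled where the adjusted p was below 0.05) lie near 0, with *Ccl5* at 3.71.

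Genes of the interferon pathway were read from lists chosen with earlier results of these data known. The counts of each list stand beside 16.7% of all tested genes called higher and 34.6% called lower, with a median of -0.10. Of the 21 interferon ligand genes only *Ifnb1* and *Ifnk* were listed, and neither passed the filter. *Ifnb1* was at 0 in all 3 controls and had 5, 2 and 5 fragments in the CITED2-deficient libraries, a mean of 0.212 FPKM (limma adjusted p = 0.0119 in a fit without the filter). Of 11 tested receptor and signalling genes, 4 rose and 5 fell, with a median of 0.02. *Stat2*, which encodes a transcription factor activated by the type I receptor, rose from 59.3 ± 2.36 to 257 ± 12.1 FPKM (log2 change 2.10, limma adjusted p = 1.45e-09). *Irf9*, which encodes a DNA-binding partner of STAT2, rose from 41.9 ± 1.63 to 67.3 ± 1.9 FPKM (log2 change 0.67, adjusted p = 1.73e-06). *Ifngr1*, a chain of the receptor for interferon gamma, fell by 0.92 (adjusted p = 3.02e-08), and the type I receptor genes *Ifnar1* and *Ifnar2* fell by 0.27 and 0.30 (adjusted p = 0.00027 and 4.65e-05). With median-ratio scaling 6 of the 11 were called higher and 3 lower. *Irf9*, *Ifnar1*, *Ifnar2* and the *Oas3*, *Isg15* and *Eif2ak2* genes below were named after their values were seen.

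Of 7 tested interferon regulatory factors, 4 rose and 2 fell, with a median of 0.26. *Irf7*, the amplifier of type I interferon genes, rose from 73.7 ± 7.02 to 816 ± 35.5 FPKM (log2 change 3.46, adjusted p = 8.88e-10). *Irf1* rose by 0.84 (adjusted p = 4.99e-06) and *Irf4* fell by 1.17 (adjusted p = 1.3e-05). Of 8 tested inhibitors of interferon signalling, 5 rose and 1 fell, with a median of 0.14. *Usp18*, which removes ISG15 and restrains the type I receptor, rose by 2.30 (adjusted p = 2.58e-08), *Adar*, the RNA-editing enzyme, by 1.16 (adjusted p = 3.95e-08) and *Socs1* by 0.74 (adjusted p = 0.00282). The other 2, *Ptpn6* and *Ptpn11*, had changes of 0.092 and 0.12 (adjusted p = 0.0411 and 0.0483), and the count of 5 became 3 without any 1 of the 3 controls or without CITED2-deficient replicate 2 or 3.

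All 32 canonical interferon-stimulated genes were tested and all 32 rose, with log2 changes from 1.22 for *Eif2ak2* to 4.22 for *Ifi44* and a median of 2.34. *Ifi44* rose from 4.6 ± 0.588 to 103 ± 7.4 FPKM (adjusted p = 1.12e-09), *Ifit2* from 39.1 ± 1.86 to 544 ± 55 FPKM (log2 change 3.76, adjusted p = 8.28e-10) and *Ifit3* from 35.6 ± 2.25 to 410 ± 22.1 FPKM (log2 change 3.49, adjusted p = 4.59e-10). The log2 differences of *Slfn2*, *Slfn5*, *Slfn8*, *Slfn9* and *Slfn3* lay below the median of this list. Those of *Slfn1* and *Slfn4* lay in the range of its highest genes, with *Slfn4* above *Ifi44*. The log2 differences of *Isg15*, the ubiquitin-like modifier, and *Oas3*, an RNA sensor, were 3.17 and 3.00. Because *Slfn2* binds transfer RNAs and relatives of the family cleave them, 11 genes of transfer RNA cleavage and reported Schlafen partners were also read. Of these 3 rose and 2 fell, with a median of -0.018, beside 16.7% higher and 34.6% lower over all tested genes. *Ang*, the ribonuclease angiogenin, fell by 0.74 (adjusted p = 0.001), and *Rnh1*, its inhibitor, rose from 237 ± 7.36 to 361 ± 15.6 FPKM (log2 change 0.61, adjusted p = 1.89e-06). *Ccnd1*, which encodes cyclin D1, rose by 0.41 (adjusted p = 0.000231).

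**Figure D4:**
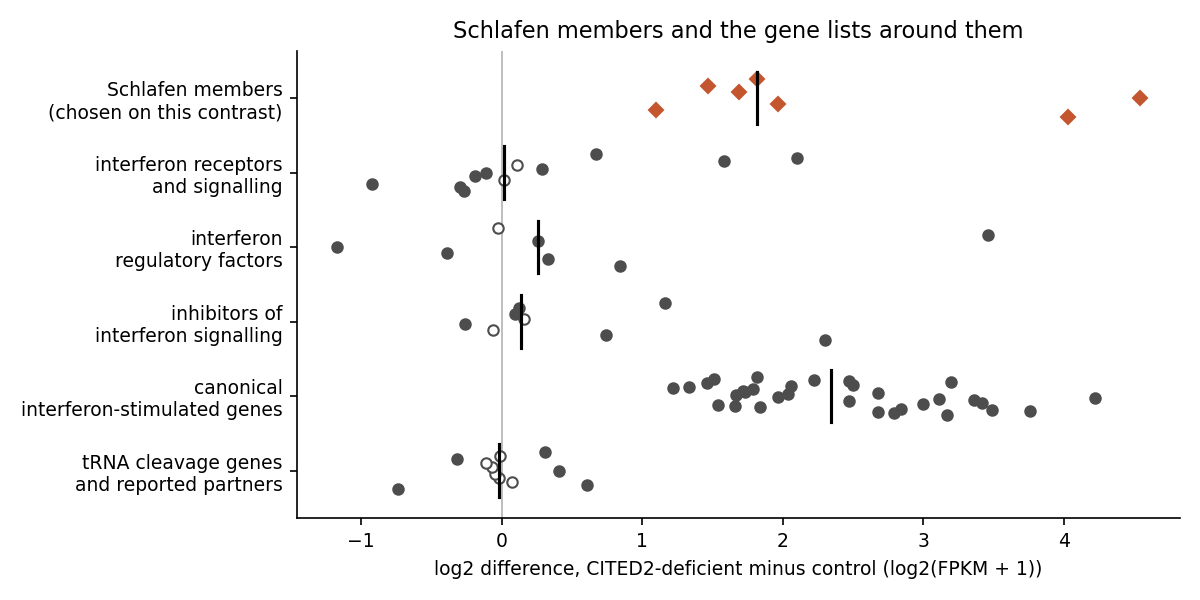
Log2 difference in log2(FPKM + 1), CITED2-deficient minus control, of the 7 members and of the tested genes of 5 lists, with 1 point per gene, filled where the adjusted p was below 0.05 (members, drawn as diamonds, have no test). The black bar is the median, which is 1.82 for the members, 2.34 for the 32 canonical interferon-stimulated genes and near 0 for the receptor and transfer RNA lists.

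Markers of cell types were read beside these values, with 16.7% of all tested genes called higher and 34.6% called lower. Macrophage markers summed to 5319 to 5375 FPKM in the controls and 4951 to 5050 FPKM in the CITED2-deficient libraries, with 1 of 7 higher (*Fcgr1*) and 5 lower. *Lyz2*, among the 5, went from 31.3 ± 1.03 to 9.75 ± 0.333 FPKM (log2 change -1.59, limma adjusted p = 2.33e-08). It is the gene into which the Cre was inserted. The study describes 1 Cre allele in both groups, and the allele number was not checked in these libraries. The cause of the fall of *Lyz2* was not tested. Of 4 monocyte markers 3 rose, and their sum was 33.8 to 35.9 FPKM in the controls and 74.6 to 82.7 FPKM in the CITED2-deficient libraries. Of 6 tested fibroblast markers 6 rose, and their sum was 42 to 50.1 FPKM in the controls and 539, 170 and 171 FPKM in CITED2-deficient replicates 1, 2 and 3. Replicate 1, with the highest fibroblast sum, mostly from *Col1a1* and *Col1a2*, was the library in which 6 of the 7 members were lowest. Without it the members' log2 differences ran from 1.12 to 4.59 with a median of 1.86. Of 7 tested neutrophil and granulocyte precursor markers 1 rose and 5 fell, with sums of 727 to 795 and 658 to 777 FPKM. The sums hide larger changes of single genes. *Mpo* fell from 16.2 ± 2.32 to 1.95 ± 0.271 FPKM and *Elane* from 12.4 ± 0.491 to 2.15 ± 0.0701 FPKM, whereas *Ltf* rose from 94.3 ± 4.77 to 177 ± 13.2 FPKM. Markers of T cells, in which *Slfn1* and *Slfn2* were first studied, summed to 6.92 to 8.59 and 5.22 to 6.71 FPKM, mostly from *Cd4*. B cell markers summed to 2.07 to 3.29 FPKM over all 6 libraries, and the listed markers of NK cells and of plasmacytoid dendritic cells to at most 0.344 and 0.39 FPKM. The part of monocyte content in the levels of the members was not tested. In such bulk libraries more cells that express a gene and more RNA per cell cannot be told apart.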

How the data were processed

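Total RNA from BMDMs was sequenced in 6 libraries (3 control, 3 CITED2-deficient) after ribosomal RNA removal with a stranded total RNA kit. The authors aligned the reads to mm10 with STAR, and the study names Cuffdiff with the GENCODE annotation for its FPKM values per gene. No source used here gives their versions. The notes of the submitters also name Cufflinks. No counts were used other than fragments recovered from the FPKM values. This was possible because 96.1% of the 22239 genes matched to GENCODE vM21 had FPKM values that were whole multiples of 1 fragment in all libraries (within 0.02). The recovered fragments served as a check of depth, which covers counting error only, and as input to the limma-voom alternative.

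The members and gene lists were chosen with earlier results of these data known. Values were analysed as log2(FPKM + 1) with limma 3.58.1 (R 4.3.3, variance trend, genotype as the only term) over genes with a mean of at least 1 FPKM, with Benjamini-Hochberg adjustment over all 11687 and a threshold of 0.05. Log2 differences on this scale understate those of low genes. A group of 3 against 3 cannot give an exact permutation p below 0.10, so single-gene tests rest on the variance shared over genes. The limma script was tested on simulated data. Named genes were all members, the other Schlafen genes, *Cited2*, the 3 largest called changes of each list, each list gene where fewer than 5 were tested, all tested neighbours within 0.5 Mb and the 2 nearest profiles of each member, except that some of these genes are not reported here. Promoter windows came from RefSeq (GRCm38.p6), and were matched by symbol for all 7 members, with none for *Slfn10-ps*. Protein lengths and identities, which had been planned, are not reported here, and shared 50-base words of the transcripts (GENCODE vM21) were counted instead. Alternatives were pseudocounts of 0.1 and 0.5, no filter or a mean of at least 5 FPKM, median-ratio and quantile scaling, limma without the trend, limma-voom on the recovered fragments, a replicate block, each library left out, a 1 Mb window, a shorter motif and a sum with the other Schlafen genes.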

Additional observations from a re-analysis of the deposited data

How the results depend on the processing

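The members' log2 differences were positive under every alternative. With a pseudocount of 0.1 they moved by more than the spread between replicates to 4.16 for *Slfn1*, 2.21 for *Slfn3* and 4.73 for *Slfn4*, and with 0.5 to 2.09 for *Slfn3* and 4.64 for *Slfn4*. Median-ratio scaling gave 4.13 for *Slfn1*, 1.20 for *Slfn2*, 2.06 for *Slfn3*, 4.64 for *Slfn4*, 1.79 for *Slfn5* and 1.58 for *Slfn8*, and quantile normalization gave 1.75 for *Slfn5*. Limma-voom on recovered fragments gave 4.16 for *Slfn1*, 2.23 for *Slfn3*, 4.75 for *Slfn4* and 2.00 for *Slfn9*, and called 1988 genes higher and 4190 lower. Leaving out single libraries gave 3.99 to 4.07 for *Slfn1*, 1.07 to 1.12 for *Slfn2*, 1.91 to 2.01 for *Slfn3*, 4.49 to 4.59 for *Slfn4*, 1.67 to 1.72 for *Slfn5*, 1.43 to 1.52 for *Slfn8* and 1.70 to 1.93 for *Slfn9*. Over all genes, median-ratio scaling called 2696 higher and 2490 lower, with the median moved from -0.10 to -0.0069, and the cause was not tested. A window of 1 Mb held 11 neighbours called higher, by holding more genes. With the other Schlafen genes in the sum, the control shares were 52% for *Slfn2* and 30.6% for *Slfn5*, and the CITED2-deficient share of *Slfn5* was 30.1%. Among uncalled neighbours, the sign turned for *Ap2b1* (0.023), *Taf15* (0.085) and *Zfp830* (0.065) with median-ratio scaling, for *Taf15* (0.021) and *Zfp830* (0.049) with quantile normalization, for *Taf15* (0.0026) without control replicate 1 and for *Zfp830* (0.0054) without control replicate 2. Single libraries left out gave -0.05 to 0.0026 for *Taf15* and -0.057 to 0.0054 for *Zfp830*. Correlations of deviations were 0.0138, 0.00784 and 0.0402 for libraries of the same number, and -0.0521 to 0.0354 for unlike numbers. They do not show whether libraries of the same number were prepared together. A fit with the replicate number as a block called 1895 genes higher and 3813 lower. It also called 46 and 10 genes of the pathway lists, and 7 and 2 neighbours. The inhibitors called higher were then 3 instead of 5, and *Ccl3* was called. Depth limits *Slfn14*, *Slfnl1*, *Slfn5os*, *Ifnb1* and *Gm27598*, which rest on 7 fragments or fewer per library.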
